A study of Danio rerio with 6 samples.

Results

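A set of 7 genes of transforming growth factor beta (Tgfβ) signaling was followed in cryoinjured zebrafish ventricles with and without functional *mdka*. They were the ligand genes *tgfb1a* (ENSDARG00000041502), *tgfb2* (ENSDARG00000027087) and *tgfb3* (ENSDARG00000019367), the signal transducer paralogs *smad3a* (ENSDARG00000036096) and *smad3b* (ENSDARG00000010207), and the genes of 2 extracellular proteins, *thbs1b* (ENSDARG00000010785) and *cilp2* (ENSDARG00000013687). The 7 genes were picked by Ensembl identifier from the 32520 genes of the count table, and all 7 passed the filter on low counts that left 17879 genes to test. They were picked with their values in the KO and WT comparison already known. Their own values are therefore given as a description, and calls of them from the fit over all genes are not read as tests.

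The KO group was *mdka cn105*, a CRISPR/Cas9 frameshift allele of the cytokine gene *mdka* carried in every cell of the fish, labelled MDKA KO. The WT group was *mdka*+/+. All fish were adults of the AB background from crosses of the same parents, all had a cryoinjury of the ventricle, and all ventricular apexes were collected at 7 days post-cryoinjury (dpci). Each library was made from a pool of 3 apexes, with KO replicates 2, 3 and 4 and WT replicates 1, 2 and 4, so n = 3 pools for each genotype and the values of single hearts were merged.

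Tgfβ ligands are secreted bound to their own propeptide, which keeps them latent in the extracellular matrix until integrins, proteases or thrombospondins free them. The freed ligand assembles type II and type I receptor kinases, which phosphorylate Smad2 and Smad3, and these enter the nucleus with Smad4. In injured hearts the pathway is best known for driving fibroblasts to deposit collagen, and in zebrafish it is also needed for the heart to regenerate.

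The *tgfb3* transcript had its own qPCR assay in the study. Its primers are given here, 5′ to 3′, because they identify which of the ligand transcripts was chosen for that assay.
tgfb3 forward: aatggctgcagggttca
tgfb3 reverse: ggtttgctttacagtcgcagt

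Library totals lay between 18940128 and 25195457 expected counts. The *mdka* transcript, which checks the labels, had 81.8, 132 and 139 CPM (counts scaled to a common library size) in KO pools and 429, 731 and 1070 CPM in WT pools. The KO and WT values of *mdka* did not overlap. The first principal component held 33.5% of the variance and set WT replicate 1 apart from the other 5 libraries. The second held 23.5%, and on it the genotypes did not overlap. KO replicates 2, 3 and 4 were at 22.4, 15.1 and 26.6. WT replicates 1 and 2 were at −3.1 and −9.4, and WT replicate 4 was far out at −51.6. Heart muscle was present in every library: no matched cardiomyocyte marker was at 0. Their summed levels were 34644 to 42237 CPM in KO pools and 48057 to 53447 CPM in WT pools. The sum of these markers does not tell ventricle from atrium. The gene *vmhc* of the same list had no match, and the label of ventricle was not checked. In RNA of whole apexes, fewer cells of a type and less RNA per cell cannot be told apart.

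The clearest differences among the 7 genes were those of *thbs1b* and *cilp2*, which had 2.87 and 2.07 times the mean WT level in KO pools. The ligands and both *smad3* paralogs differed by smaller amounts, and the *smad3* paralogs differed in opposite directions. All KO values lay above all WT values for *tgfb3*, *smad3a*, *thbs1b* and *cilp2*, while the genotypes overlapped for *tgfb1a*, *tgfb2* and *smad3b*. Of all 17879 genes tested, 8.75% had every KO value above every WT value, 8.97% had every KO value below, and 17.7% were apart in either direction. By the study's threshold of an unadjusted *p* of 0.05, 12.1% of all genes tested differed (edgeR quasi-likelihood test), 5.64% being higher in KO and 6.42% lower. Among the 7 genes, *smad3a*, *thbs1b* and *cilp2* passed as higher and *smad3b* as lower. With a library left out, *thbs1b* and *cilp2* always passed, and *smad3a* did not without KO replicate 3 or KO replicate 4. The call of *smad3b* was lost without KO replicate 3, KO replicate 4, WT replicate 1 or WT replicate 4, and with scaling by library size alone. Near the threshold, *tgfb3* passed without WT replicate 1 or WT replicate 2, and with library size alone, limma-voom, no filter or a replicate block. Since this contrast guided the choice of the genes, nothing is read from these calls, from whether they held, or from the adjusted calls that follow. At an adjusted *p* of 0.05 the share of all genes was 0.00559% in the main edgeR fit. None of the 7 genes passed there or in limma-voom, while DESeq2, library size alone and the fit without a filter passed *thbs1b* and *cilp2*. With scaling by library size alone, the split of all genes was 2081 higher and 501 lower, against 1009 and 1148 with TMM.

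**Figure D1:**
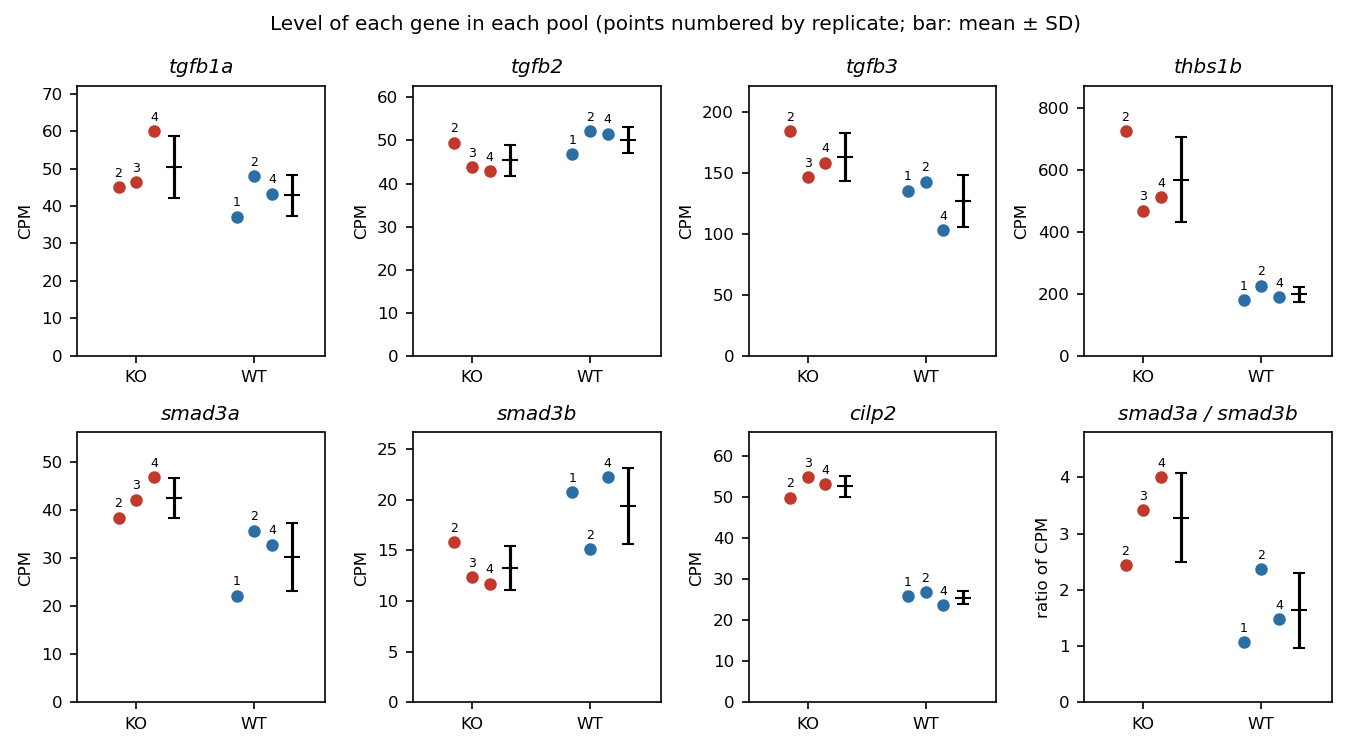
CPM (vertical axes, from 0) of each gene in every pool, KO on the left and WT on the right, with points numbered by replicate, a bar for the mean ± SD (n = 3), and in the last panel the ratio of *smad3a* to *smad3b*. The *thbs1b* and *cilp2* points of KO and WT are far apart (568 and 198 CPM, and 52.6 and 25.5 CPM on average), those of *tgfb3* and *smad3a* are narrowly apart, and those of *tgfb1a*, *tgfb2* and *smad3b* overlap.

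Among the ligands, *tgfb3* encodes an isoform best known from palate and lung development in mice. It had 185, 147 and 159 CPM in KO pools and 135, 143 and 103 CPM in WT pools. The genotypes were apart by only 3.63 CPM, between KO replicate 3 and WT replicate 2. The mean was 163 ± 19.4 CPM in KO and 127 ± 21.1 CPM in WT (SD, n = 3 each), a log2 fold change of 0.36 with a standard error (SE) of 0.16. The log2 fold change of *tgfb3* was 0.23 without WT replicate 4, the lowest WT pool.

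The gene *tgfb1a* is a zebrafish ortholog of TGFB1, the isoform most often tied to scarring in mammals. It had 45.0, 46.3 and 60.0 CPM in KO pools and 37.2, 48.0 and 43.3 CPM in WT pools. Only KO replicate 4 lay above all WT pools, and without it the log2 fold change fell to 0.09, against 0.24 (SE 0.15) with all pools. Its deposited counts were not whole numbers in any library, so RSEM had divided shared reads and its level is uncertain. The other TGFB1 ortholog, *tgfb1b*, which is not among the 7 genes and was singled out after its values were seen, had 43.8, 33.2 and 45.9 CPM in KO pools and 38.2, 29.7 and 23.3 CPM in WT pools. Its genotypes also overlapped, with a log2 fold change of 0.43 (SE 0.20) and an adjusted *p* of 0.47.

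The gene *tgfb2*, whose ortholog is needed for heart and valve development in mice, was the ligand with the smallest spread. It had 49.4, 43.7 and 42.9 CPM in KO pools and 46.8, 52.2 and 51.5 CPM in WT pools. KO replicate 2 lay within the WT range and the other KO pools just under it, with a log2 fold change of −0.15 (SE 0.11). That difference shrank to −0.01 with scaling by library size alone, a scaling that put the median of all genes at 0.13. The size of the *tgfb2* difference thus depends on the scaling, while its sign was negative in every alternative. The ratio of *tgfb3* to *tgfb2*, which does not depend on scaling, was 3.73, 3.35 and 3.70 in KO pools and 2.90, 2.74 and 2.002 in WT pools. These ratios of CPM did not overlap, but they compare the 2 transcripts only as a change between genotypes, not as a difference in abundance, because their lengths were not used. The ratio of *tgfb3* to *tgfb1a* overlapped, with 4.10, 3.16 and 2.64 in KO pools and 3.64, 2.98 and 2.38 in WT pools. That of *tgfb1a* to *tgfb2* overlapped as well. Summed over *tgfb1a*, *tgfb2* and *tgfb3*, the level was 259 ± 21.3 CPM in KO and 220 ± 22.5 CPM in WT, with overlapping pools.

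Smad3 is the transducer that binds DNA directly after Tgfβ receptors phosphorylate it, and zebrafish have 2 copies of its gene. The *smad3a* copy had 38.5, 42.2 and 46.8 CPM in KO pools and 22.2, 35.7 and 32.8 CPM in WT pools. All KO pools were above all WT pools, by 2.76 CPM at the nearest pair, and WT replicate 1 was the lowest of the 6 libraries. The log2 fold change was 0.49 (SE 0.19), and 0.31 without WT replicate 1. Its counts were not whole numbers in any library, so reads shared with other transcripts make this level uncertain.

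The *smad3b* copy went the other way. It had 15.8, 12.4 and 11.7 CPM in KO pools and 20.7, 15.1 and 22.2 CPM in WT pools. KO replicate 2 exceeded WT replicate 2, so the genotypes overlapped, and the log2 fold change was −0.54 (SE 0.19). Its counts were whole in every library and lay between 235 and 446. The negative sign of *smad3b* was kept with every scaling and with each library left out, between −0.69 and −0.43 for the latter.

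The ratio of *smad3a* CPM to *smad3b* CPM within a library, not corrected for length, was 2.44, 3.42 and 4.0 in KO pools and 1.07, 2.37 and 1.48 in WT pools. KO replicate 2 and WT replicate 2 came within 0.07 of each other in this ratio. The sum of both paralogs was 55.8 ± 2.38 CPM in KO and 49.6 ± 6.15 CPM in WT, with overlapping pools.

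In mammals, the product of THBS1 is an adhesive glycoprotein of platelets and matrix that can free latent Tgfβ1 by binding its propeptide. The gene *thbs1b*, a zebrafish ortholog, had 726, 468 and 512 CPM in KO pools and 180, 226 and 189 CPM in WT pools. The lowest KO pool had 2.07 times the level of the highest WT pool. The log2 fold change of *thbs1b* was 1.52 (SE 0.19), and only 89 of all 17879 genes tested had a higher one. KO replicate 2 was well above the other KO pools, and without it the log2 fold change was 1.30. The counts behind these values lay between 3581 and 18610, were whole in every library, and came from 4 annotated transcripts.

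The gene *cilp2* encodes a secreted matrix protein of the cartilage intermediate layer family, whose member CILP is known in mammals to bind TGFβ1 and hold down its signaling. It had 49.9, 54.8 and 53.2 CPM in KO pools and 25.9, 26.8 and 23.7 CPM in WT pools. These were the tightest values of the 7 genes in KO, with a coefficient of variation of 4.83% in KO and 6.24% in WT. The log2 fold change of *cilp2* was 1.05 (SE 0.11) and stayed between 0.997 and 1.08 with each library left out. The family member *cilp*, by contrast, had 144, 159 and 124 CPM in KO pools and 91.6, 115 and 159 CPM in WT pools, which overlapped (log2 fold change 0.23, SE 0.21, adjusted *p* = 0.76). A test of the difference between *cilp2* and *cilp* was not made.

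**Figure D2:**
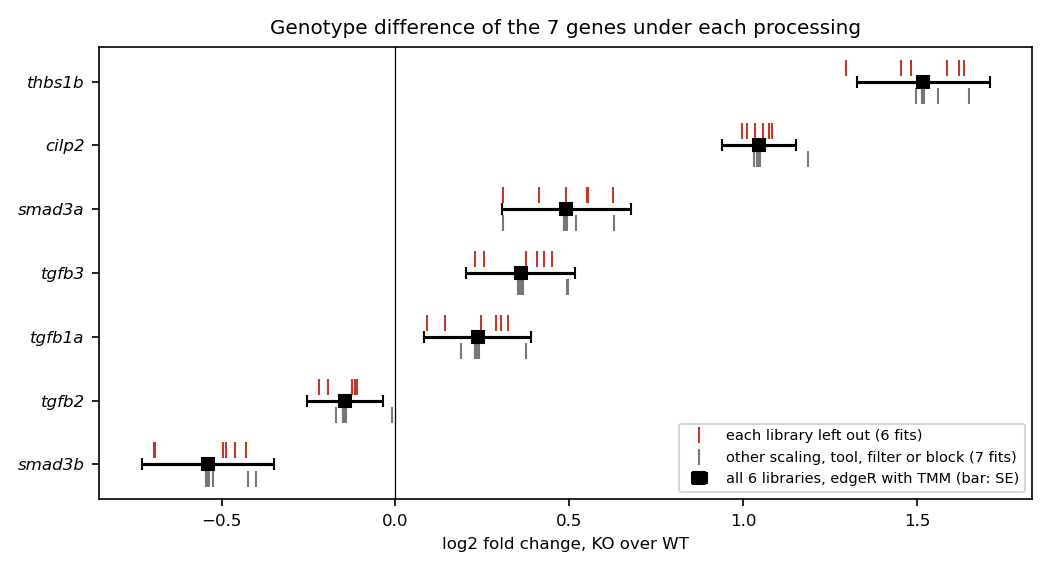
Log2 fold change of KO over WT (horizontal axis) for each gene, with a black square and SE bar for all 6 libraries, red ticks above for each library left out and grey ticks below for other scalings, tools, filters and the replicate block. Every tick of a gene keeps the sign of its square, with *tgfb2* nearest to 0 at −0.01 and *thbs1b* farthest from it, between 1.30 and 1.65.

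The rest of the pathway was described from 6 lists by role, without the 7 genes. Of 116 listed genes tested, 20 were higher in KO and 2 lower at an unadjusted *p* of 0.05, which is 19.0% against 12.1% of all genes, and their median log2 fold change was 0.14 against −0.01. None of the 116 passed an adjusted *p* of 0.05 in the main edgeR fit or in limma-voom, and 12 did in DESeq2, all higher in KO. With scaling by library size alone *lrrc32*, *ccn2b* and *snai1b* passed, and without a filter *snai1b* did. The lists were assembled with earlier results of these libraries known, so these counts are descriptive.

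Among genes of latency and activation, 5 of 32 were higher in KO, none was lower, and the median log2 fold change was 0.20. The share called was 15.6% against 12.1% of all genes tested. The gene *lrrc32*, whose mammalian product GARP displays latent Tgfβ on platelets and regulatory T cells, had 19.8, 15.4 and 14.6 CPM in KO pools and 7.06, 7.62 and 8.06 CPM in WT pools. The genotypes of *lrrc32* were widely apart (log2 fold change 1.13, SE 0.16, unadjusted *p* = 0.00014, adjusted *p* = 0.096), and the gene passed the unadjusted threshold with any library left out. The second THBS1 ortholog, ENSDARG00000103775, had 547, 353 and 479 CPM in KO pools and 318, 324 and 126 CPM in WT pools, where WT replicate 4 was far below the rest. Its log2 fold change was 0.85 (SE 0.35, adjusted *p* = 0.39), and it no longer passed without KO replicate 2 or KO replicate 4. Over all fits with a library left out, its log2 fold change lay between 0.52 and 1.05. The ratio of *thbs1b* to this paralog was 1.327, 1.323 and 1.068 in KO pools and 0.567, 0.698 and 1.496 in WT pools. The genotypes overlapped in this ratio only through WT replicate 4, while WT replicates 1 and 2 lay below all KO pools.

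The other 3 genes of this list were nearer to the threshold. The integrin beta 3 ortholog ENSDARG00000045070 had a log2 fold change of 0.64 (adjusted *p* = 0.37). The gene *dcn*, for the Tgfβ-binding proteoglycan decorin, had 0.50 (adjusted *p* = 0.39). The gene *ltbp1*, for a latent Tgfβ binding protein, had 0.44 (adjusted *p* = 0.41). The *ITGB3* ortholog and *ltbp1* each lost the unadjusted call without KO replicate 2, KO replicate 4, WT replicate 1 or WT replicate 4, and *dcn* without each library in turn other than WT replicate 4. The call of *ltbp1* was also lost with relative log expression factors and with the CPM filter. Left-out values lay between 0.41 and 0.86 for the ITGB3 ortholog ENSDARG00000045070, 0.35 and 0.78 for *dcn*, and 0.28 and 0.63 for *ltbp1*. The count of this list was 1 without KO replicate 2, 2 without KO replicate 4 and 3 without WT replicate 1, and it was 10 with a median of 0.34 with scaling by library size alone. Abundant members that did not pass were the matrix protease gene *mmp2* (0.20, adjusted *p* = 0.84) and the integrin beta 1 ortholog ENSDARG00000071863 (0.21, adjusted *p* = 0.48).

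None of the 12 receptor genes and none of the 6 other Smad genes passed the unadjusted threshold. For receptor genes with low levels this says little. The TGFBR1 ortholog ENSDARG00000017494 had a mean of 0.88 CPM in KO and 0.51 CPM in WT (SE of the log2 fold change 0.52). The TGFBR1 ortholog ENSDARG00000042259 had 3.32 and 2.96 CPM (SE 0.40). Receptor genes with the highest CPM, not corrected for length, included the type I receptor genes ACVR1B (ENSDARG00000018968), with a log2 fold change of −0.17 (SE 0.13), and *acvrl1*, with −0.12 (SE 0.20). The TGFBR2 orthologs ENSDARG00000034541 and ENSDARG00000059363 had −0.07 (SE 0.10) and −0.01 (SE 0.14). The Smads of the bone morphogenetic protein branch, *smad1* and *smad9*, had −0.43 (SE 0.29) and 0.07 (SE 0.20). For *smad2* the value was 0.04 (SE 0.13). The SMAD4 orthologs ENSDARG00000012649 and ENSDARG00000075226 had −0.37 (SE 0.26) and −0.24 (SE 0.14). The median log2 fold changes were −0.10 for receptors and −0.10 for other Smads. Both were 0.04 with scaling by library size alone, a scaling that put the median of all genes at 0.13. Their sign thus depends on the scaling, and no direction is read from it.

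Of 19 inhibitor genes, 2 were higher and 1 was lower in KO, a share of 15.8% against 12.1% of all genes tested. The gene *bambia*, for a decoy receptor without a kinase domain, had 107, 99.2 and 95.2 CPM in KO pools and 70.4, 55.9 and 57.2 CPM in WT pools (log2 fold change 0.71, SE 0.13, unadjusted *p* = 0.00053, adjusted *p* = 0.15). The gene *smad6b*, for an inhibitory Smad acting mainly on the bone morphogenetic protein branch, had 68.8, 65.3 and 56.6 CPM in KO pools and 49.1, 32.3 and 37.3 CPM in WT pools (0.68, SE 0.17, unadjusted *p* = 0.0041, adjusted *p* = 0.21). Neither gene overlapped between genotypes, and both passed the unadjusted threshold with any library left out. The gene *smurf2*, for a ubiquitin ligase that removes receptors and Smads, was lower (−0.62, SE 0.26, adjusted *p* = 0.41) and lost its call without KO replicate 2, 3 or 4 or WT replicate 4 and with library size alone, limma-voom or the CPM filter, with left-out values between −0.81 and −0.23. The abundant *fkbp1aa* (0.11, SE 0.10) and *ski* (−0.10, SE 0.17) did not pass.

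The target genes held the most calls, 11 of 32 (34.4%) higher in KO and none lower, against 12.1% of all genes tested. Their median log2 fold change was 0.36, and 17 were higher with scaling by library size alone. The genes *col1a1a*, *col1a1b*, *col1a2*, *col5a1*, *col5a2a* and *postna* had been named by the study from these libraries, and without these 6 genes the count was 5 of 26 (19.2%) with a median of 0.22. That smaller count was 3 without WT replicate 2. The gene *snai1b*, for a transcription factor of epithelial-mesenchymal transition, had 32.9, 34.5 and 36.4 CPM in KO pools and 14.7, 17.6 and 17.2 CPM in WT pools (1.07, SE 0.12, unadjusted *p* = 2.5e-05, adjusted *p* = 0.073). Both copies of connective tissue growth factor were higher. The gene *ccn2b* had 15.6, 15.3 and 17.4 CPM in KO pools and 8.27, 6.01 and 6.38 CPM in WT pools (1.22, SE 0.17, adjusted *p* = 0.094). The gene *ccn2a* had 411, 388 and 598 CPM in KO pools and 164, 268 and 165 CPM in WT pools (1.22, SE 0.25, adjusted *p* = 0.17). For all 3 genes the genotypes were clearly apart and the unadjusted call held with any library left out. Of the 6 named by the study, *col1a2* lost its call without KO replicate 3 and with the replicate block. The calls of the rest of those 6 held with any library left out. Apart from those 6 and *snai1b*, *ccn2b* and *ccn2a*, the called genes were less stable. The gene *lox* (0.55, SE 0.22, adjusted *p* = 0.37) lost its call without KO replicate 2, KO replicate 3, WT replicate 1 or WT replicate 2, and with the replicate block. The gene *id1* (0.40, SE 0.16, adjusted *p* = 0.37) lost its call without each library in turn other than WT replicate 1.

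Of the matrix genes among the targets, *postna* (periostin) had a log2 fold change of 0.95 (SE 0.16, adjusted *p* = 0.13) and *col5a2a* (a chain of collagen V) had 0.67 (SE 0.12, adjusted *p* = 0.16). The abundant fibronectin ortholog ENSDARG00000006526 had 3750 ± 767 CPM in KO and 3760 ± 754 CPM in WT (SD, n = 3 each), a log2 fold change of −0.00 (SE 0.20). The periostin ortholog ENSDARG00000104267 had 0.56 (SE 0.29) and did not pass (adjusted *p* = 0.51).

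Among the other ligands of the superfamily, 9 of 24 were too low to be tested, 2 of 15 were higher in KO and 1 was lower. The share called was 20% against 12.1% of all genes tested. The gene *inhbaa*, for an activin subunit that signals through Smad2 and Smad3, had 11.9, 12.3 and 20.1 CPM in KO pools and 5.02, 7.05 and 3.64 CPM in WT pools. These did not overlap (log2 fold change 1.49, SE 0.30, unadjusted *p* = 0.0013, adjusted *p* = 0.17), and the unadjusted call held with any library left out. The gene *bmp6* had 0.61 (SE 0.20, adjusted *p* = 0.29) and lost its call without KO replicate 4, WT replicate 2 or WT replicate 4. Over all fits with a library left out, the values of *bmp6* lay between 0.48 and 0.82. The gene *bmp2a*, at 1.29 ± 0.10 CPM in KO and 2.16 ± 0.23 CPM in WT (SD, n = 3 each), had −0.75 (SE 0.25, adjusted *p* = 0.30). It lost its call without KO replicate 2, KO replicate 3 or WT replicate 1. Over all fits with a library left out, the values of *bmp2a* lay between −0.82 and −0.67.

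**Figure D3:**
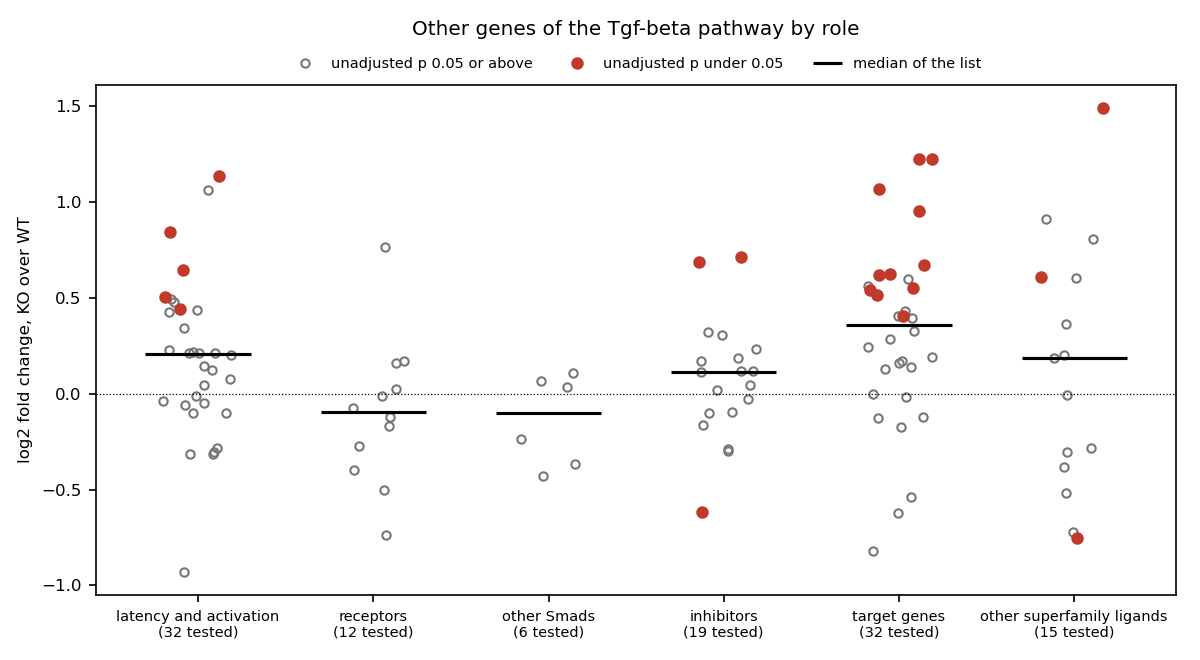
Log2 fold change of KO over WT (vertical axis) for the 116 tested pathway genes outside the 7, 1 point a gene, grouped by role, with filled points for an unadjusted *p* under 0.05 and a line at each list's median. Filled points above 0 are most frequent among target genes (11 of 32), and receptors and other Smads have none.

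Markers of several cell types also differed between genotypes, where 12.1% of all genes tested passed the unadjusted threshold in either direction. Of 7 thrombocyte markers, the fish counterpart of platelet genes, 5 were higher in KO at the unadjusted threshold (*itga2b*, *gp1bb*, *gp9*, *mpl* and *nfe2*) and none was lower. The marker *thpo* went the other way, with the lowest log2 fold change of the list (−0.54), and did not pass. The gene *gp1bb*, for a platelet adhesion receptor subunit, had 44.6, 49.0 and 42.8 CPM in KO pools and 14.5, 27.0 and 22.2 CPM in WT pools (1.101, SE 0.21, unadjusted *p* = 0.0010). The gene *mpl*, for the thrombopoietin receptor, had 10.2, 11.0 and 5.68 CPM in KO pools and 2.70, 3.94 and 4.22 CPM in WT pools (1.31, SE 0.30, unadjusted *p* = 0.0025). All KO pools exceeded all WT pools for both genes. The highest KO pool was replicate 3 for *gp1bb* and *mpl*, and replicate 2 for *itga2b*, *gp9*, *nfe2*, *thbs1b* and *lrrc32*. The calls of *gp1bb*, *mpl* and *nfe2* held with any library left out, those of *itga2b* and *gp9* did not, and the count of the list was 3 without KO replicate 2 or without WT replicate 1. The summed level of the 7 markers was 276 to 323 CPM in KO pools and 204 to 281 CPM in WT pools, again highest in KO replicate 2. None of the markers was at 0 in any library. Most of the sum was *fli1*, which endothelium also expresses and which is counted in the endothelial list as well.

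Of 8 smooth muscle and bulbus arteriosus markers tested, 4 were higher in KO (*elnb*, *mylka*, *mylkb* and the MYH11 ortholog ENSDARG00000009782) and none was lower. Those without a call, *acta2* among them, had log2 fold changes between −0.16 and 0.41. The MYH11 call was lost without KO replicate 2, KO replicate 3, WT replicate 2 or WT replicate 4, and the other calls held with any library left out. The gene *elnb*, an elastin of the outflow tract, had 127, 179 and 90.7 CPM in KO pools and 45.8, 42.0 and 67.3 CPM in WT pools (1.36, SE 0.28, unadjusted *p* = 0.0014). The summed level of the list was 1197 to 1397 CPM in KO pools and 914 to 1122 CPM in WT pools, without overlap and highest in KO replicate 2, while *elnb* was highest in KO replicate 3. Of 5 erythrocyte markers tested, 4 were higher in KO, with summed levels of 4302 to 9242 CPM in KO pools and 2786 to 4914 CPM in WT pools, and the count was 2 without KO replicate 2. Of 8 cardiomyocyte markers, 4 were lower in KO (*myl7*, *tnnt2a*, *cmlc1* and *actc1a*), a count that was 0 with scaling by library size alone, 1 without KO replicate 4, and 2 without KO replicate 3 or without WT replicate 1. The 11 tested markers of epicardium and fibroblasts had no call, with sums of 666 to 892 CPM in KO pools and 635 to 734 CPM in WT pools. Of 7 markers of macrophages and neutrophils, 3 were higher and 1 was lower in KO. The higher count was 6 without WT replicate 1, 1 without KO replicate 3 or without WT replicate 2, and 2 without each other library. The lower gene, the neutrophil lysozyme gene *lyz*, had 4.13, 5.11 and 2.44 CPM in KO pools and 42.9, 9.49 and 8.22 CPM in WT pools. WT replicate 1 stood far above the rest, and the log2 fold change of *lyz* was −2.37 with all pools and between −2.75 and −1.18 with a library left out. Of 7 endothelial markers, 1 was higher (14.3%, against 12.1% of all genes tested), and 2 were without KO replicate 4 or without WT replicate 1. The part of these cell types in the levels of *thbs1b*, *lrrc32*, *cilp2* and the target genes was not tested.

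**Figure D4:**
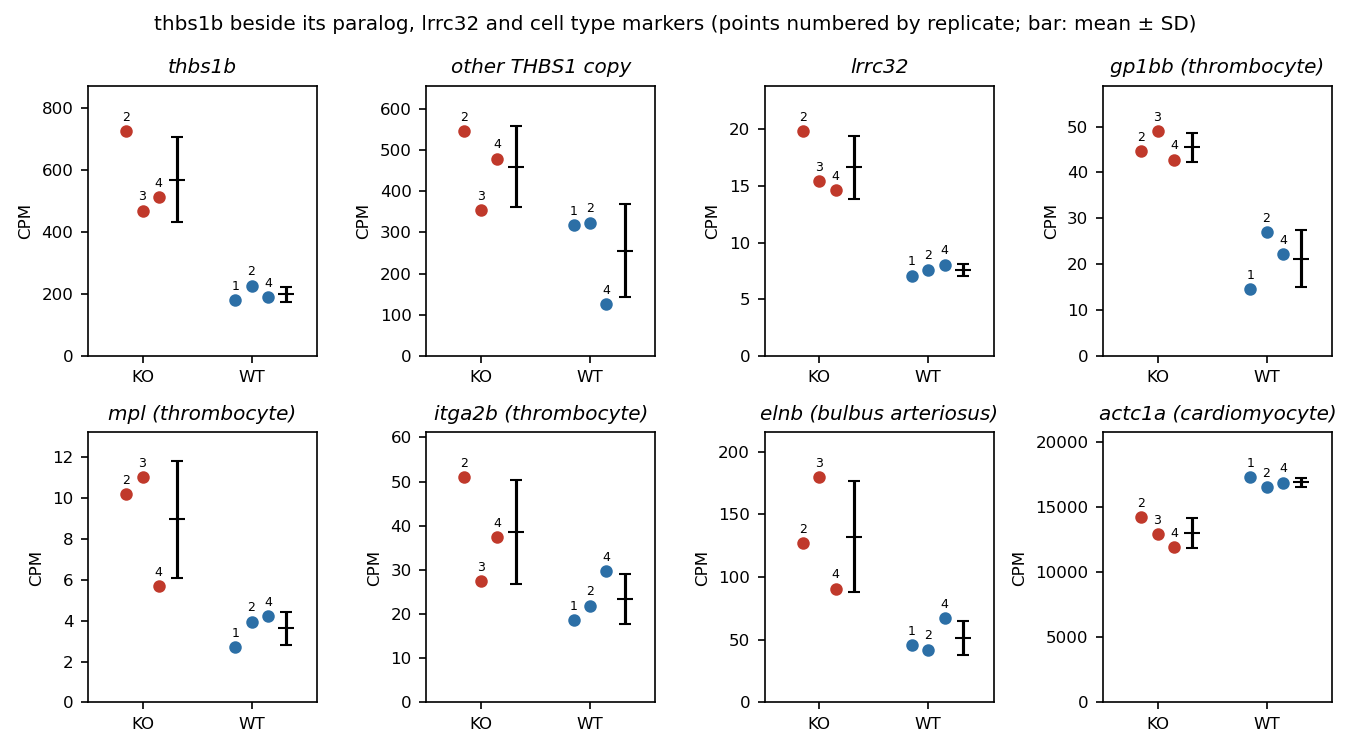
CPM (vertical axes, from 0) per pool of *thbs1b*, the other THBS1 ortholog, *lrrc32* and markers of thrombocytes, bulbus arteriosus and cardiomyocytes, KO left and WT right, with points numbered by replicate and bars for the mean ± SD (n = 3). KO points lie above WT points for every gene except *itga2b*, where they overlap, and *actc1a*, where all KO points (11900 to 14226 CPM) lie below all WT points (16512 to 17266 CPM).

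For each of the 7 genes, the 3 genes with the most similar pattern over the 6 libraries were looked up among 16948 named genes. Likeness was the root mean square difference of log2 CPM after centering each gene, which is small where 2 genes rise and fall together by the same amount. Nearest to *cilp2* were *large2* (0.08), *rgs20* (0.10) and *tanc1a* (0.10), compared with a spread of 0.53 of *cilp2* itself around its mean. Nearest to *thbs1b* were *si:dkey-164n2.1* (0.16), *grin2bb* (0.20) and *abcc12* (0.21), with a spread of 0.78. The nearest genes of *thbs1b* were thus less close than those of *cilp2*.

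The genotype difference is part of these patterns. The Smad3 paralogs were known to differ in opposite directions, so that they have different nearest genes was fixed by that choice. Close matches over 6 libraries among 16948 genes can also arise by chance, and nothing is read from which genes they were. Nearest to *smad3b* were *pgam2* (0.07), a muscle enzyme gene of glycolysis, and *mt-atp6* (0.07), a mitochondrial gene of ATP synthase. Nearest to *smad3a* were *gchfr* (0.07), *krt18b* (0.07) and *si:ch73-237c6.1* (0.07). The spread of the paralogs around their own means was 0.34 each. For the ligands, the nearest genes were *slc66a1* (0.04), *npr2* (0.04) and *tmem203* (0.05) to *tgfb1a*. To *tgfb2* they were *brf2* (0.03), *si:ch211-213a13.11* (0.03) and *agps* (0.04), and to *tgfb3* they were *zgc:162344* (0.04), *si:ch211-1a19.3* (0.04) and *hivep2* (0.05). The ligands had the smallest spreads around their own means (0.11 to 0.25).

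The genes next to the 7 on the chromosome were looked up to 3 places on each side in the gene order of RefSeq, and none of the tested neighbours of *thbs1b* or *cilp2* passed the unadjusted threshold. The tested neighbours of *thbs1b*, *acot20* and *katnbl1*, had log2 fold changes of −0.47 (SE 0.23) and −0.04 (SE 0.16). All KO pools of *acot20* lay below all WT pools. Many other neighbours of the 7 genes were not matched or not tested. The 3 tested neighbours of *cilp2* lay between −0.18 and 0.25. The Smad3 copies each lie beside a Smad6 copy, and there *smad6b* was higher in KO next to *smad3b*, which had the opposite sign. The copy beside *smad3a*, *smad6a*, was not matched by name in this lookup. The SMAD6 ortholog ENSDARG00000053209 of the inhibitor list had 0.30 (SE 0.24), with overlapping genotypes. The neighbour *map2k5* of *smad3a*, singled out after its value was seen, had −0.63 (SE 0.15), with all KO pools below all WT pools.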

How the data were processed

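The authors made directional poly(A) libraries from 3 pools of 3 apexes for each genotype, sequenced 60 base single reads on a HiSeq system, demultiplexed with bcl2fastq 2.20.0.422, mapped to the Ensembl GRCz11 transcriptome and estimated levels with RSEM. Cutadapt is also named in the submitters' processing notes. The deposited table holds RSEM expected counts of 32520 genes, neither normalized nor filtered, and between 18.7% and 20.4% of a library's values were not whole, because RSEM divides reads among near-identical transcripts.

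The expected counts were rounded and tested with edgeR 4.0.16 (R 4.3.3) by the two-sided quasi-likelihood test with TMM scaling, on all 17879 genes kept by filterByExpr (minimum count 10, minimum total 15), with Benjamini-Hochberg adjustment over all of them. CPM are TMM-scaled, and SE are those of the log2 fold change. With 3 pools a genotype, precision is set mainly by how pools vary (common dispersion 0.0555). The pipeline was run on simulated counts with 200 changed genes as a check of the code. The simulated pools held no outlying library, so that run does not bear on the calls made here. The alternatives were relative log expression factors, library size alone, DESeq2 1.42.0, limma-voom (limma 3.58.1), CPM above 1 in at least 3 libraries, no filter, a replicate block and each library left out.

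The 7 genes and all lists were chosen with earlier results of these data known. The rule named, in each pathway list, up to 4 genes with the smallest unadjusted *p* under 0.05 and up to 2 abundant genes that did not pass, and for each of the 7 genes the 3 most similar genes, of which 1, for *smad3b*, is not reported here. Markers, *tgfb1b*, *cilp*, *ltbp1*, *ccn2a*, *lox*, *id1*, the TGFBR1 orthologs and the neighbours fall outside it, their values having been seen first. The same holds for *smad2*, *col1a2*, the TGFBR2 and SMAD4 orthologs and the SMAD6 ortholog ENSDARG00000053209. Symbols came from a name table (29205 of 32520 genes), which matched 119 of 128 listed pathway symbols (126 genes) and 49 of 55 marker symbols. Copies that share a symbol are given by identifier. Gene order was taken from RefSeq's GRCz12tu table. Transcript lengths and sequences of these genes were not used here, so levels per length were not compared between genes, and ratios of CPM compare genotypes only.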

Additional observations from a re-analysis of the deposited data

How the results depend on the processing

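The log2 fold changes of the 7 genes kept their sign under every alternative run, and 89 of 91 values moved by less than the spread between pools. The exceptions were *tgfb2* (−0.0087) and *cilp2* (1.19) with library size alone, a scaling that put the median of all genes at 0.13. With each library left out, the log2 fold changes were 1.30 to 1.64 for *thbs1b*, 0.997 to 1.08 for *cilp2*, 0.31 to 0.63 for *smad3a*, 0.23 to 0.45 for *tgfb3*, 0.09 to 0.32 for *tgfb1a*, −0.22 to −0.11 for *tgfb2* and −0.69 to −0.43 for *smad3b*.

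Over all genes at the unadjusted threshold, library size alone gave 2081 higher and 501 lower, and leaving out a library gave 656 to 1392 higher and 676 to 1380 lower, with the lowest of both counts without KO replicate 4. At the adjusted threshold, edgeR called 1 gene higher and 0 lower. The counts were 18 and 1 with library size alone, 224 and 221 with DESeq2, 16 and 3 without a filter, 2 higher with limma-voom, and 0 to 2 higher and 0 to 2 lower with a library left out. DESeq2, library size alone and the fit without a filter each put *thbs1b* and *cilp2* past the adjusted threshold. Both genes were chosen with this contrast known, so these calls are not read as tests.

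For the pathway lists together, library size alone gave 34 higher and 1 lower. The count of lower genes was 1 with limma-voom, 1 with the CPM filter, and 1 to 5 with a library left out (4 without WT replicate 2 and 5 without WT replicate 4), while the higher genes numbered 15 to 22. The cause of these shifts was not tested.

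Replicate numbers 2 and 4 occur in both genotypes, but nothing says that equal numbers were processed together. The deviations of same-numbered libraries from their group means correlated across genes at r = 0.0886 for number 2 and 0.0024 for number 4, so the numbers were not taken as a pairing. With the replicate block, which compares genotypes only within those numbers, 3 genes were higher and 1 lower at the adjusted threshold, the pathway lists had 22 higher and 3 lower, and *smad3a* (0.31) and *smad3b* (−0.43) kept their signs but no longer passed the unadjusted threshold. The latency and activation list had 5 higher and 2 lower with a median of 0.07 under the block, and the cardiomyocyte markers had 1 lower. The comparison of levels between genes with and without division by length was not run.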
